A study of Mus musculus with 6 samples.

Results

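A set of 10 resident Kupffer cell genes was followed in whole liver of 6 TAA-treated mice. They were Clec4f, Timd4, Vsig4, Cd5l, Marco, Cd163, C1qa, C1qb, C1qc and Adgre1, taken by symbol as a list of known markers, and all 10 were found among the 21983 genes of the count table. Each had counts in every mouse, between 21 and 3513, and all 10 were among the 13153 genes tested. The 3 Lrat-Cre; Prmt1f/f mice (numbers 49, 82 and 88, called knockout here) carried floxed Prmt1, the gene of a major arginine methyltransferase, together with a Cre driven from Lrat, which in liver is a gene of stellate cells. The 3 Prmt1f/f mice (42, 83 and 90, called control) carried the floxed allele with no Cre. All were C57BL/6 mice given the hepatotoxin thioacetamide (TAA), used to scar the liver, at 400 mg/L in the drinking water over 16 weeks, and with no TAA-free mice the response to TAA was not measured. The labels state an age of 10 weeks without its time point, and no sex.

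Kupffer cells are the macrophages that live in the liver sinusoids. They settle before birth, renew themselves, and clear bacteria, dying cells, spent red cells and haemoglobin from portal blood. Signals from stellate and sinusoidal endothelial cells maintain their identity, and in chronic injury monocyte-derived macrophages join or replace them. Clec4f and Timd4 are close to specific for Kupffer cells in mouse liver, whereas the C1q genes and Adgre1 are also made by other tissue macrophages.

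With p values adjusted over all genes (threshold 0.05), edgeR's quasi-likelihood test called 0 of 13153 genes between genotypes (0%), and so none of the 10 genes. Their directions were mixed. The haemoglobin receptor Cd163 and the scavenger receptor Marco were on average 4.04-fold and 2.77-fold higher in knockout livers, the phosphatidylserine receptor Timd4 was 2.03-fold higher, and the 3 C1q genes stood at 0.520 to 0.613 of the control level. Clec4f, Vsig4, Cd5l and Adgre1 had fold changes between 1.09 and 1.30. In all, 7 genes were higher and 3 lower on average, with a median log2 fold change of 0.14 against -0.02 over all genes tested. At an unadjusted p under 0.05 edgeR gave 2 of the 10 higher (Cd163 and Marco) and 0 lower, where 5.06% of all genes were higher and 5.95% lower. DESeq2 called 0 of the 10 (1.81% of all genes given an adjusted p), and limma-voom with a weight per library also 0 (4.26% of all genes). The groups overlapped in all 10 genes, while 16.9% of all genes tested had groups that did not overlap. In whole liver a smaller number of cells of a type and less RNA per cell cannot be told apart.

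**Figure D1:**
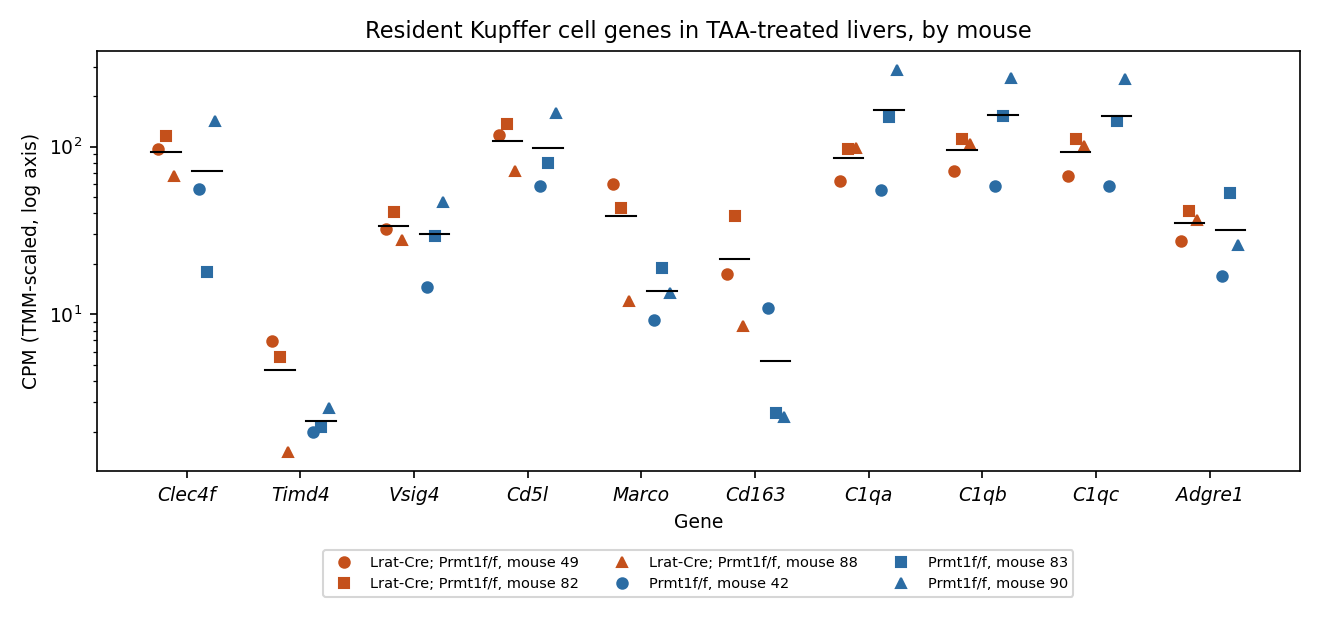
Level of each of the 10 genes in each mouse, as TMM-scaled CPM on a log axis, with knockout mice left of control mice and a bar at the mean of 3 mice. Control mouse 42 is the lowest in 7 genes and control mouse 90 the highest in 6, while Cd163, Marco and Timd4 each have 2 knockout mice above every control mouse.

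Levels are given as counts per 1000000 scaled by TMM (CPM), so they compare mice within a gene. Total counts per mouse ran from 13303884 to 16462278. Prmt1, the targeted gene, had 35.8, 24.7 and 25.8 CPM in knockout mice 49, 82 and 88, against 38.9, 44.4 and 49.8 CPM in control mice 42, 83 and 90. All knockout values lay under all control values (log2 fold change -0.62, SE 0.20, adjusted p 0.347 in edgeR). The adjusted p of Prmt1 was 0.166 in DESeq2, 0.3515 in limma-voom and 0.0384 in limma-voom with library weights. Summed hepatocyte markers took 81160 to 96670 CPM in knockout mice and 66810 to 103900 CPM in control mice.

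Cd163 and Marco had the largest differences among the receptors that take up debris. Cd163, which binds haemoglobin held by haptoglobin, had 17.4, 38.4 and 8.50 CPM in knockout mice 49, 82 and 88. In control mice 42, 83 and 90 it had 10.9, 2.59 and 2.45 CPM. Knockout mice 49 and 82 lay above every control mouse, and knockout mouse 88 lay under control mouse 42. On the log2 scale Cd163 was 2.01 higher (SE 0.68; its 95% interval ran from 0.46 to 3.57); the adjusted p was 0.362 by edgeR and 0.0673 by DESeq2. The two-sided exact permutation p was 0.2, where 3 mice against 3 cannot go under 0.1. Marco, a class A scavenger receptor for bacteria and particles, had 60.2, 43.1 and 12.0 CPM in knockout mice 49, 82 and 88, against 9.20, 19.0 and 13.3 CPM in control mice 42, 83 and 90. Again mice 49 and 82 stood above all controls, and mouse 88 lay among them. Its log2 fold change was 1.47 (SE 0.51, 95% interval 0.30 to 2.64; adjusted p 0.368 in edgeR and 0.106 in DESeq2; exact permutation p 0.3).

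Timd4 and Clec4f are the members closest to specific for resident cells. Timd4, a receptor for phosphatidylserine on dying cells, is typical of long-settled Kupffer cells. It had 6.95, 5.55 and 1.51 CPM in knockout mice 49, 82 and 88, and 2.0, 2.13 and 2.78 CPM in control mice 42, 83 and 90. The 2 highest values and the lowest value were all in knockout mice, and the counts behind them were small, at 108, 74 and 21 in knockout and 30, 42 and 34 in control mice. Its log2 fold change of 1.02 (SE 0.52) had a 95% interval from -0.15 to 2.20 and an adjusted p of 0.488 by edgeR. Clec4f, a C-type lectin receptor, had 96.9, 116 and 66.7 CPM in knockout mice and 56.2, 18.0 and 142 CPM in control mice, in the same order of mice. The controls spanned 7.90-fold and the knockout mice 1.74-fold, so all knockout values lay inside the control range. The log2 fold change was 0.37 with a 95% interval from -0.97 to 1.72 (adjusted p 0.826 in edgeR). In limma-voom it was 0.78, and with a weight per library 1.57 (adjusted p 0.101 over all genes).

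Vsig4, Cd5l and Adgre1 were near equal on average. Vsig4, the complement receptor CRIg that captures opsonised bacteria, had 32.1, 40.7 and 27.8 CPM in knockout mice 49, 82 and 88 and 14.5, 29.5 and 46.9 CPM in control mice 42, 83 and 90 (log2 fold change 0.15, 95% interval -0.69 to 0.99). Cd5l, a secreted scavenger-receptor-like protein also called AIM, had 117, 136 and 71.7 CPM in knockout mice and 58.0, 80.3 and 158 CPM in control mice (0.13, 95% interval -0.72 to 0.99). Adgre1 encodes F4/80, the adhesion receptor used to stain mouse macrophages. It had 27.3, 41.2 and 36.4 CPM in knockout mice and 17.0, 52.8 and 26.0 CPM in control mice (0.13, 95% interval -0.73 to 0.98). In each of these genes the knockout values lay inside the control range. Their adjusted p values ran from 0.895 to 0.914 in edgeR, which does not show equal levels, since the intervals were wide.

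**Figure D2:**
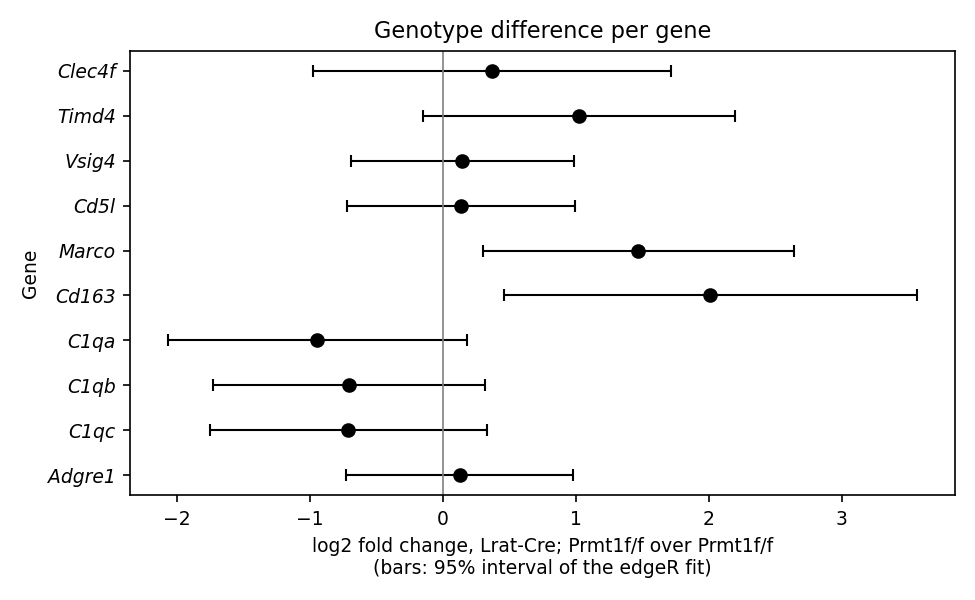
Log2 fold change of knockout over control for each gene (points) with the 95% interval of the edgeR fit (bars) from 3 mice per genotype. The intervals of Cd163 and Marco lie above 0, those of the other 8 genes cross it, and no gene passed after adjustment over all genes.

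The C1q genes encode the A, B and C chains of the molecule that starts the classical complement pathway, and tissue macrophages are its main source. C1qa had 62.1, 96.5 and 98.1 CPM in knockout mice 49, 82 and 88 and 55.5, 151 and 287 CPM in control mice 42, 83 and 90. C1qb had 71.5, 111 and 103 CPM in knockout mice and 58.7, 151.5 and 255.5 CPM in control mice. C1qc had 66.4, 111 and 101 CPM in knockout mice and 58.1, 143 and 254 CPM in control mice. In all 3 genes control mouse 42 stood below every other mouse and control mice 83 and 90 above every other, with the knockout mice between them. The log2 fold changes were -0.94 for C1qa (SE 0.50, 95% interval -2.07 to 0.18), -0.71 for C1qb (SE 0.45) and -0.71 for C1qc (SE 0.46), with adjusted p values of 0.505, 0.576 and 0.582 in edgeR. C1qc stayed close to C1qb in every mouse, at a CPM ratio of 0.929 to 1.0 in knockout and 0.945 to 0.996 in control mice. C1qa was at 0.869 to 0.951 of C1qb in knockout mice and 0.945 to 1.13 in control mice, and these ranges overlapped.

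The 3 C1q genes lie next to each other on the minus strand of chromosome 4 (mm10), C1qb from 136880129 to 136886187, C1qc from 136889804 to 136893065 and C1qa from 136895917 to 136898803. No other annotated gene overlapped any of the 10 genes, so reads of an overlapping or antisense neighbour do not enter their counts by this annotation. Cd163 lies on chromosome 6 from 124304656 to 124330527 (plus strand) and Marco on chromosome 1 from 120474538 to 120505024 (minus strand).

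The 250 bases before the RefSeq start site are shown for Cd163 and Marco, which had the largest differences, for C1qb as a C1q gene, and for Vsig4, which had the most PU.1 core matches. They are RefSeq sequences on GRCm38.p6, the assembly of mm10, read 5′ to 3′ along each gene's strand (C1qb at chr4:136886201-136886450, minus strand; Marco at chr1:120505025-120505274, minus strand; Vsig4 at chrX:96293439-96293688, minus strand; Cd163 at chr6:124304401-124304650, plus strand). Capitals mark the letters GAGGAA or GGAAGT (cores bound by PU.1, the myeloid ETS factor), TGCTGA (the half-site of MAF factors) and AGGTCA (the half-site of nuclear receptors such as LXR), on either strand.
Cd163: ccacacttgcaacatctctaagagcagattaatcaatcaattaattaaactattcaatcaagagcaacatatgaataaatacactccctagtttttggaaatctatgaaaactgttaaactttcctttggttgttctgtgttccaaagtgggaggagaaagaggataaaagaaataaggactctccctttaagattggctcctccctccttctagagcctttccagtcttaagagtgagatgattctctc
Marco: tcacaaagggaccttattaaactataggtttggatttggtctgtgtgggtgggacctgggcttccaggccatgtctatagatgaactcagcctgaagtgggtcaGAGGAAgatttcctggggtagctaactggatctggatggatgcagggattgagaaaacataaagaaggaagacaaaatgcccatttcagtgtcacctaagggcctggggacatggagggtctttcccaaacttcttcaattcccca
C1qb: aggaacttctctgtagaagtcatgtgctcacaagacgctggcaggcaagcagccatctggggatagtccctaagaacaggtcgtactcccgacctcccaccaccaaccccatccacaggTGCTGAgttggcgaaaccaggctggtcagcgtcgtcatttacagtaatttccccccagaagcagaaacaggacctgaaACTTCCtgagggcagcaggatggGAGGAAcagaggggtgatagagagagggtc
Vsig4: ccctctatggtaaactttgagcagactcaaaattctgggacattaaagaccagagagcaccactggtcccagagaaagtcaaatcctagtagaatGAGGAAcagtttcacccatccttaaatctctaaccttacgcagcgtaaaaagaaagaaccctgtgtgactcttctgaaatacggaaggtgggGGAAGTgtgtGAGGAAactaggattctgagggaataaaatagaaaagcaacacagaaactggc
A start site with sequence was given for 8 of the 10 genes. Of these 8 windows, 7 held GAGGAA or GGAAGT, which 36.7% of all 32851 windows of this length held. The exception was Cd163, which held none of the 4 letter strings. In C1qc a GAGGAA and a GGAAGT match overlapped. TGCTGA was found in 4 of the 8 windows (16.1% of all windows) and AGGTCA in 3 (14%). A match is a run of letters and not a site shown to be bound. Spi1, which encodes PU.1, had a log2 fold change of -0.86 (SE 0.43) and Nr1h3, which encodes LXR-alpha, 0.13 (SE 0.19), neither past adjusted p 0.05 in edgeR.

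Each of the other 7 genes was also set against C1q within a mouse, as CPM per 100 CPM of the 3 C1q genes together. All 7 ratios were higher on average in knockout livers. This direction was built in, since these 7 genes were higher and the 3 C1q genes lower on average. Vsig4 stood at 16.1, 12.8 and 9.20 in knockout mice 49, 82 and 88 and at 8.40, 6.63 and 5.89 in control mice 42, 83 and 90. Adgre1 stood at 13.6, 12.9 and 12.0 in knockout mice and at 9.87, 11.8 and 3.26 in control mice. These 2 of the 7 ratios did not overlap between genotypes. The exact permutation p was 0.1 for both, the smallest that 20 assignments allow, and 0.233 when adjusted over the 7 ratios. Undivided, 16.9% of all genes tested did not overlap. The share of all genes that separate when divided by C1q was not computed, so the count of 2 is not read as a result. Cd163 stood at 8.69, 12.1 and 2.81 in knockout mice and 6.31, 0.582 and 0.308 in control mice, a control range that overlapped through mouse 42. C1q together made up 35.8%, 43.1% and 57.4% of the summed CPM of the 10 genes in knockout mice 49, 82 and 88, against 50.7%, 68.6% and 67.1% in control mice 42, 83 and 90. These ratios were chosen after the values were seen.

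**Figure D3:**
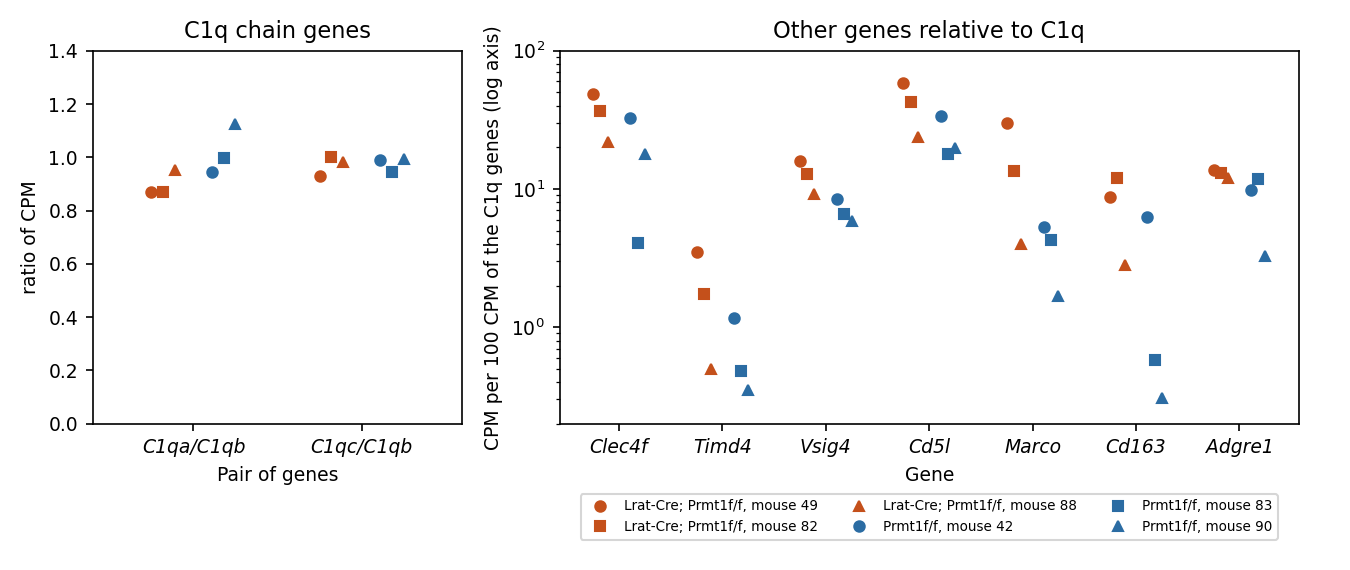
Left, CPM of C1qa and C1qc divided by that of C1qb in each mouse, all between 0.869 and 1.13. Right, CPM of each other gene per 100 CPM of the C1q genes on a log axis, where knockout and control mice separate for Vsig4 and Adgre1 and overlap for the other 5 genes.

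Divided by exon length, levels could be compared between genes. C1qb and C1qa led in knockout livers with 87.5 ± 19.2 and 82.3 ± 19.5 CPM per kb (SD, n = 3), followed by Cd5l (53.2 ± 16.3), C1qc (48.1 ± 12.1) and Clec4f (37.7 ± 10.1). Control livers had C1qa at 158 ± 112, C1qb at 143 ± 90.5, C1qc at 78.7 ± 51.0, Cd5l at 48.5 ± 25.8 and Clec4f at 29.2 ± 25.7 CPM per kb. Vsig4, Marco and Adgre1 had 22.6 ± 4.42, 19.97 ± 12.7 and 10.8 ± 2.18 CPM per kb in knockout livers, against 20.4 ± 10.9, 7.18 ± 2.54 and 9.86 ± 5.74 CPM per kb in control livers. At the low end Cd163 and Timd4 had 3.93 ± 2.82 and 2.15 ± 1.30 CPM per kb in knockout livers and 0.971 ± 0.882 and 1.06 ± 0.192 CPM per kb in control livers. Neighbours in the order differed by less than the larger of their SDs, except C1qa and Cd5l, Clec4f and Vsig4, and Adgre1 and Cd163 in knockout livers and Marco and Timd4 in control livers. The length of C1qc rests on all its annotated exons (1931 bases, against 1040 for C1qa), so its lower value per kb depends on which transcripts were present.

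The 10 genes varied widely among mice of the same genotype. Their pooled within-genotype SD of log2 CPM was larger than that of 86.7% to 98.5% of all genes tested. This spread was not particular to them. The median percentile of this SD was 94.0 for the 10 genes and 87.6 for other Kupffer cell identity genes. It was 91.8 for genes common to macrophages, 91.1 for recruited and scar-associated genes, and 95.7 for T, B and NK cell markers. In 7 genes the high-to-low ratio was wider in control mice, as in C1qa with 1.58-fold in knockout and 5.18-fold in control mice. Cd163 (4.52-fold and 4.43-fold), Marco (5.0-fold and 2.06-fold) and Timd4 (4.60-fold and 1.39-fold) had the wider ratio in knockout mice. Their low knockout mouse was 88 in each case.

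Leaving out single mice moved the fold changes accordingly. Cd163 stood at 3.08 without control mouse 42 and at 1.27 without knockout mouse 82, on the log2 scale. Marco stood at 0.99 and Timd4 at 0.62 without knockout mouse 49. The C1q differences were -0.33 (C1qa), -0.20 (C1qb) and -0.17 (C1qc) without control mouse 90 and -1.35, -1.09 and -1.10 without control mouse 42. Clec4f was at -0.09 without control mouse 83 and at 1.30 without control mouse 90. The direction of Clec4f, Vsig4, Cd5l and Adgre1 turned when certain mice were left out, that of the other 6 genes in no such fit. None of the 10 genes passed adjusted p 0.05 in any of these fits. Without control mouse 42, groups did not overlap in 4 of the 10 genes (C1qa, C1qb, C1qc and Cd163), as in 38% of all genes tested in that fit. Without knockout mouse 88 they did not overlap in 3 (Cd163, Marco and Timd4), where 23.3% of all genes did not. The count was 1 without control mouse 83 (Adgre1; 22% of all genes) and 1 without control mouse 90 (Clec4f; 28%), and 0 without knockout mouse 49 (33.1%) or 82 (22.1%). In the 4 mice numbered over 80 alone it was 4 (the C1q genes and Cd163), where 53.3% of all genes did not overlap. Fewer mice separate more genes, and none of these counts is read as a result about the 10 genes.

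**Figure D4:**
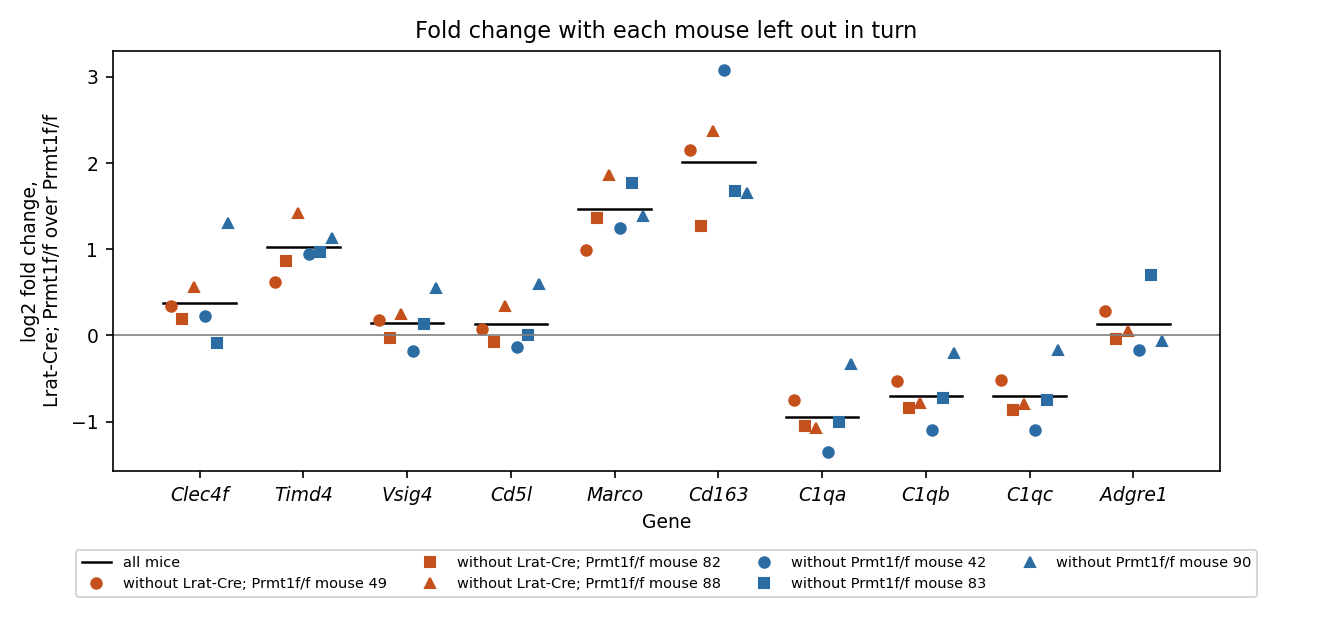
Log2 fold change of knockout over control for each gene with all mice (line) and with each mouse left out in turn (symbols). Cd163, Marco and Timd4 stay above 0 and the C1q genes below 0 whichever mouse is left out, while Clec4f, Vsig4, Cd5l and Adgre1 fall on both sides.

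Other Kupffer cell identity genes were mixed in direction. Of 20 genes, all tested, 7 were higher and 13 lower, with a median log2 fold change of -0.15 (0.18 without control mouse 90 and -0.35 without control mouse 42) and 0 past adjusted p 0.05 in edgeR. Id3, a transcription inhibitor that Kupffer cells need, averaged 76.1 ± 6.72 CPM in knockout mice and 149 ± 23.9 CPM in control mice (SD, n = 3 each). Its groups did not overlap (log2 fold change -0.97, SE 0.19), with an adjusted p of 0.227 in edgeR, 0.000627 in DESeq2 and 0.0282 in limma-voom with library weights. Id3 is also transcribed in cells other than macrophages. The folate receptor Folr2 (0.05, SE 0.45), the iron exporter Slc40a1 (0.33, SE 0.18) and the lectin Fcna (0.19, SE 0.38) were also not past adjusted p 0.05 in edgeR, and of these only Slc40a1 had groups that did not overlap.

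Genes listed as common to macrophages, though not all confined to them, were mostly lower on average in knockout livers. Of 18 such genes 2 were higher and 16 lower in knockout livers, median log2 fold change -0.76, with 0 past adjusted p 0.05 in edgeR and groups overlapping in all 18. The lysosomal glycoprotein Cd68 had 15.0, 19.7 and 19.4 CPM in knockout mice and 19.3, 30.8 and 40.7 CPM in control mice (log2 fold change -0.75, SE 0.27). Cd74, the invariant chain of antigen presentation, had 172, 315 and 322 CPM in knockout mice and 199.9, 635 and 1834 CPM in control mice (-1.72, SE 0.67, and -0.69 without control mouse 90). The median of the 18 genes was -0.37 without control mouse 90. Summed over the list, levels ran from 1649 to 2245 CPM in knockout mice and from 1562 to 4904 CPM in control mice. The mean log2 CPM of the 3 C1q genes exceeded that of this list by 1.03, 1.06 and 1.05 in knockout mice 49, 82 and 88 and by 0.83, 1.06 and 1.32 in control mice 42, 83 and 90. For the other 7 genes the difference from the list was 0.14, -0.25 and -1.37 in knockout mice and -1.10, -2.16 and -2.25 in control mice. The C1q difference thus varied little among mice, and the other 7 genes stood higher against them in knockout mice 49 and 82 than in any control mouse.

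Genes of recruited monocytes and scar-associated macrophages were lower in all 14 tested of 16, median log2 fold change -0.98, and 5 of the 14 had groups that did not overlap, against 16.9% of all genes tested. None passed adjusted p 0.05 in edgeR. Some genes of the list, such as Cd9, are widely expressed, and Spp1 is also among the bile duct markers given below, so the list is not specific to these cells. Lgals3, the lectin galectin-3, had 12.7, 17.7 and 17.5 CPM in knockout mice and 23.4, 37.8 and 67.1 CPM in control mice (log2 fold change -1.42, SE 0.36). Fabp5, a fatty acid binding protein, had 12.2, 14.8 and 9.15 CPM in knockout mice and 17.3, 36.4 and 36.1 CPM in control mice (-1.31, SE 0.32). DESeq2 gave adjusted p values of 0.0179 and 0.0176 for them. Trem2 of this list is listed at 0 in every mouse. The mean log2 CPM of the 10 Kupffer cell genes exceeded that of the recruited list by 3.27, 2.72 and 1.71 in knockout mice 49, 82 and 88 and by 1.32, 0.82 and 1.24 in control mice 42, 83 and 90, and the groups did not overlap. The direction of this difference was built in, since 7 of the 10 genes were higher and all 14 recruited genes lower on average. The mean log2 CPM of the 10 genes alone overlapped between genotypes. How often differences of 2 lists separate was not computed, so the separation is not read as a result. The difference was chosen after the values were seen and has no test.

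**Figure D5:**
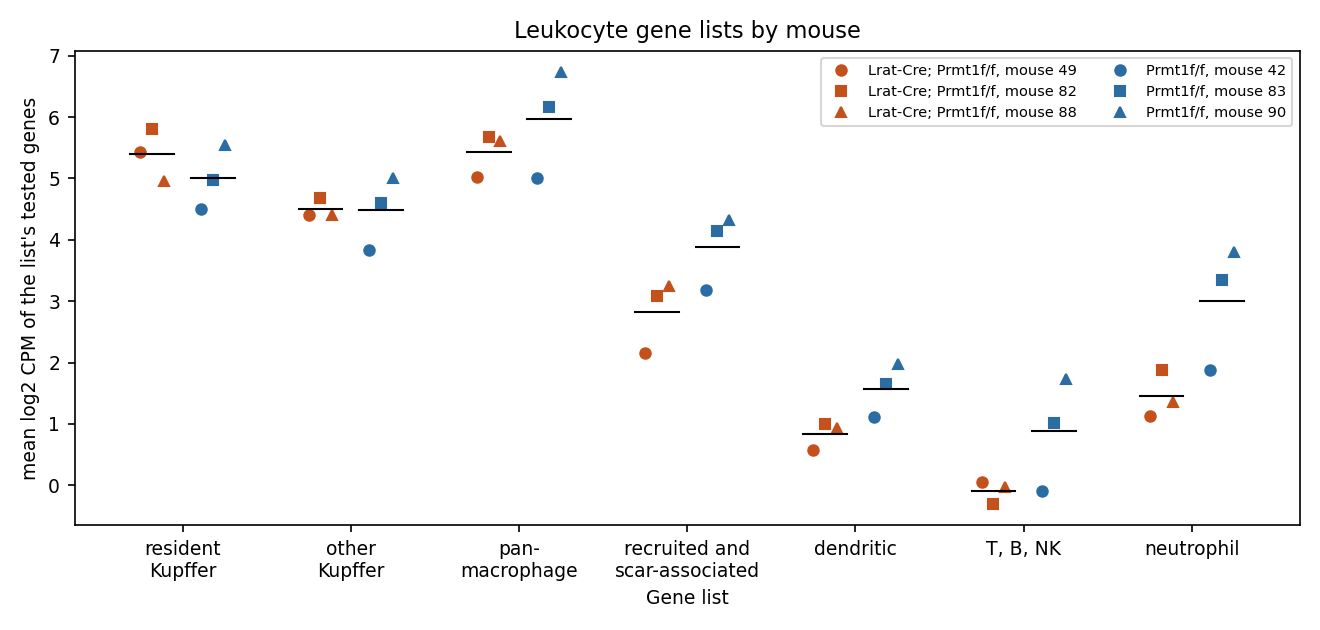
Mean log2 CPM of the tested genes of each list in each mouse, with a bar at the mean of 3 mice per genotype. The 10 resident genes average 5.40 in knockout and 5.01 in control mice, the recruited and scar-associated list 2.83 and 3.88, and control mouse 90 is the highest mouse in the 6 lists other than the resident genes.

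Markers of other leukocytes were also mostly lower on average in knockout livers, and their sums were highest in control mouse 90. Dendritic cell markers (7 tested of 8, 6 lower, median log2 fold change -0.70, and -0.41 without control mouse 90) summed to 17.1 to 23.3 CPM in knockout mice and 19.3 to 38.3 CPM in control mice, with Ccr7 at -1.59 and Flt3 at -1.63. T, B and NK cell markers (8 tested of 10, all lower, median -1.44, and -0.85 without control mouse 90) summed to 8.47 to 9.87 CPM in knockout and 8.07 to 28.8 CPM in control mice, with Cd79a at -1.41. Neutrophil markers (4 tested of 8, all lower, median -1.91) summed to 11.7 to 17.4 CPM in knockout and 17.7 to 85.1 CPM in control mice, with Csf3r at -1.01 and S100a9 at -2.17 (-1.39 without control mouse 90). No marker of the 3 lists passed adjusted p 0.05 in edgeR, and no listed marker was at 0 in all mice. S100a9 had an adjusted p of 0.0248 in DESeq2 and 0.1235 in limma-voom with library weights. In that weighted fit Ccr7 had 0.0487 and Cd79a 0.0453, against 0.09997 and 0.1436 in DESeq2. These genes had low levels. Ccr7 ran from 0.60 to 0.86 CPM in knockout mice and from 1.53 to 2.54 CPM in control mice. Cd79a ran from 0.52 to 1.48 CPM and from 2.2 to 3.11 CPM, and Flt3 from 0.45 to 1.05 CPM and from 1.67 to 3.30 CPM. The part of these other leukocytes in the Kupffer cell gene values was not tested.

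The signals that hold Kupffer cells in place were mixed in direction. Of 20 niche signals and receptors 7 were higher and 13 lower, median log2 fold change -0.15 (-0.28 to -0.08 with a mouse left out), with 0 past adjusted p 0.05 in edgeR. Tgfb1, a growth factor needed for Kupffer cell identity, had 24.5, 24.0 and 21.1 CPM in knockout mice and 27.1, 34.0 and 38.0 CPM in control mice (-0.51, SE 0.19, groups apart). Il34, a ligand of the CSF1 receptor, had 2.19, 5.84 and 3.96 CPM in knockout mice and 4.87, 8.54 and 7.85 CPM in control mice (-0.83, SE 0.40, and -0.53 without knockout mouse 49). Csf1r itself, on which macrophages depend, was at -0.33 (SE 0.35).

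Genes with functions next to those of the 10 were mixed as well. Among 15 tested of 16 scavenger and apoptotic cell receptors 6 were higher and 9 lower (median log2 fold change -0.16, and 0.05 without control mouse 90), with the lipoprotein receptor Scarb1 at 0.50 (SE 0.18, groups apart) and the myeloid lipid receptor Cd300lf at -1.15 (SE 0.45, and -0.61 without control mouse 90). Of 14 haem and iron genes 7 were higher and 7 lower (median -0.15, from -0.27 to -0.04 with a mouse left out). Hamp, which encodes hepcidin, the hormone that removes the iron exporter from Kupffer cells, had 126, 74.6 and 192 CPM in knockout mice and 929.6, 213 and 1293 CPM in control mice. Its groups did not overlap (log2 fold change -2.64, SE 0.62). The adjusted p of Hamp was 0.267 in edgeR, 0.000476 in DESeq2 and 0.112 in limma-voom with library weights. Lrp1, a receptor for haemopexin with haem, was at 0.81 (SE 0.35, and 0.49 without control mouse 90). Of 16 complement partners of C1q and Vsig4, 10 were higher and 6 lower (median 0.12, from -0.03 to 0.27 with a mouse left out). C3, whose fragments Vsig4 binds, had 9009, 12130 and 12640 CPM in knockout mice and 6494, 7906 and 5800 CPM in control mice (0.74, SE 0.30, groups apart). Cd93, a membrane lectin first described as a C1q receptor, was at -0.56 (SE 0.22, groups apart, and -0.32 without control mouse 83). None of these 3 lists held a gene past adjusted p 0.05 in edgeR.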

How the data were processed

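RNA of whole liver from 6 mice was sequenced. Per the labels' protocols, RNA was taken up in TRIzol and libraries were made with a NEBNext Ultra kit. The authors deposited raw counts per gene in 1 table. Per the submitters' processing notes Trimmomatic, FastQC, STAR, HTSeq and build mm10 were used; versions, annotation and strand setting were not given in the sources used here. Mice were grouped by title and are separate animals; mouse numbers are not shared between genotypes, so nothing was paired.

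Counts were filtered with filterByExpr, scaled by TMM and tested across all genes in R 4.3.3 with edgeR 4.0.16 (quasi-likelihood test; genotype as only term; Benjamini-Hochberg adjustment; threshold 0.05). The test was run on simulated counts in which the spread of a gene followed the trend with expression level. Spread particular to a gene was not simulated, and the 10 genes varied more than most, so the simulation does not check the test for them. TMM factors ran from 0.909 to 1.20. CPM are counts over the TMM-scaled library size; log2 CPM used a prior count of 2. Intervals are at 95% with the 8.75 degrees of freedom of the fit, from 3 mice per genotype. The fit borrows variance from all genes tested, so their width does not rest on the spread of a gene's own 6 mice alone. Single values had two-sided exact permutation tests (scipy 1.17.1).

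The members and lists were chosen with earlier results of these data known. Named genes are the 10 members, Prmt1 and the 2 genes with the smallest p of each other list, of which 2 genes are not reported here. Folr2, Slc40a1, Fcna, Nr1h3, Spi1, Csf1r and Trem2 were named after their values were seen. Exon lengths and positions come from GENCODE release M21 (GRCm38), start-site sequences from RefSeq.

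Alternatives were RLE factors, total counts only, no filter, at least 1 CPM in 3 samples, the 20 most abundant genes left out, DESeq2 1.42.0, limma-voom (limma 3.58.1) with and without library weights, a robust fit, an adjusted p of 0.10, each mouse left out, mouse number as a covariate (over 80 or not; the labels do not call it a batch) and the 4 mice over 80 alone. The newer edgeR fit was added after seeing the data.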

Additional observations from a re-analysis of the deposited data

How the results depend on the processing

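Over 18 alternative fits, 168 of 180 fold changes of the 10 genes kept their sign and none of the 10 passed adjusted p 0.05. The sign turned for Adgre1 with total counts only (-0.084), without knockout mouse 82 (-0.04), control mouse 42 (-0.17) or control mouse 90 (-0.06) and in the 4 mice over 80 alone (-0.023). It turned for Vsig4 without knockout mouse 82 (-0.03) or control mouse 42 (-0.18) and in the 4 mice over 80 (-0.15), for Cd5l likewise (-0.07, -0.13 and -0.20), and for Clec4f without control mouse 83 (-0.09). With a mouse left out the highest values of these 4 genes were 0.70 (Adgre1), 0.55 (Vsig4), 0.60 (Cd5l) and 1.30 (Clec4f). Clec4f moved to 0.78 in limma-voom and 1.57 with library weights (adjusted p 0.101). With those weights, lowest for control mouse 90 (0.315) and highest for knockout mouse 82 (2.98), Vsig4 was at 0.42, Cd5l at 0.40, Marco at 0.85, C1qa at -0.41, C1qb at -0.26 and C1qc at -0.23. The median of the 10 genes lay between -0.15 (without control mouse 42) and 0.57 (without control mouse 90). Of the 10 genes, those with groups that did not overlap numbered 0 to 4 with a mouse left out, where 22% to 38% of all genes did not overlap, and 4 in the mice over 80 (53.3% of all genes), against 0 with all mice (16.9%). Genes past the threshold over the whole table numbered 0 in edgeR with all mice (1448 at an unadjusted p under 0.05), 3 at adjusted p 0.10, 4 with no filter, 238 in DESeq2, 560 with library weights, 6 with the mouse number term and 0 to 13 with a mouse left out (13 without knockout mouse 49). Prmt1 had a log2 fold change of -0.74 and an adjusted p of 0.0384 with library weights. Total counts as the only scaling moved the median of all genes to -0.17, against -0.02 with TMM. The causes were not tested. No paired analysis was possible because the genotypes share no mouse numbers. Low counts limit Timd4, with 21 to 108 per mouse, and low levels also limit Ccr7, Flt3 and Cd79a.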

Other observations

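Large peritoneal macrophages, which also carry Timd4, and the cells around the Kupffer cell were looked at by their own lists. Of 8 peritoneal macrophage genes 7 were tested, 4 higher and 3 lower, with a median log2 fold change of 0.05 (-0.42 without knockout mouse 49). Tgfb2 (-1.22, SE 0.43, and -0.67 without control mouse 83) and Cd9 (-0.85, SE 0.31), both widely expressed genes, had the smallest p. Sinusoidal endothelial markers, of which 9 of 10 were tested, had 5 higher and 4 lower and a median of 0.00 (-0.17 to 0.14 with a mouse left out), summing to 347 to 513 CPM in knockout mice and 366 to 501 CPM in control mice. Their hyaluronan receptor Lyve1 was at -0.92 (SE 0.44, and -0.40 without control mouse 90) and Ehd3 at 0.26 (SE 0.24, 0.11 without control mouse 42 and 0.46 without knockout mouse 49).

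Stellate cell markers were lower in 9 of 10 genes, median log2 fold change -0.76, and summed to 283 to 489 CPM in knockout mice and 663 to 751 CPM in control mice, with Acta2 at -1.29 and Reln at -1.01. Bile duct markers were lower in 8 of 8, median -0.84 (-0.40 without control mouse 83 and -1.30 without knockout mouse 88), with Cldn4 at -1.60 (-0.86 without control mouse 83) and Muc1 at -1.22. Spp1 is in both the bile duct list and the recruited list, so the lower values of both are not independent. Hepatocyte markers had 5 of 8 higher, median 0.38, with Pck1 at 1.11 and Cps1 at 1.04. In edgeR no gene of these 5 lists passed adjusted p 0.05, while DESeq2 gave Acta2, Reln, Pck1 and Cps1 adjusted p values of 0.0101, 0.0184, 0.0190 and 0.0336.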
